A study of Mus musculus with 6 samples.

Results

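Integrins and other cell adhesion receptors were followed across 3 groups of As4.1 cultures. The members are all probe sets that the array annotation gives to a single gene whose symbol starts with Itga or Itgb, or is 1 of 15 named adhesion genes (Icam1, Icam2, Vcam1, Alcam, Ncam1, Cd44, Cdh2, Cdh11, Cdon, Sdc1 to Sdc4, Jam2 and Jam3). They were 112 of 45101 probe sets and 44 of 18193 genes. By kind they were 16 integrin alpha subunits, 9 beta subunits, 3 integrin-binding proteins and the beta-like protein Itgbl1. The others were 7 receptors of the immunoglobulin superfamily, 2 cadherins, 4 syndecans, and Cd44 and Cdon. The prefix also takes in proteins that are not receptors, namely Itgb1bp1, Itgb1bp2 and Itgb3bp.

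As4.1 is a renin-expressing mouse line that was derived from a kidney tumour of a transgenic animal. Cultures received vehicle, hydrogen peroxide (a reactive oxygen species) or an interleukin, and nothing else distinguishes the groups in the labels. The labels name neither the interleukin nor a dose or a time, and all groups are the same line, so each result is about this line. Each group held 2 separate cultures, each measured on 1 Affymetrix mouse array, which gives 6 arrays.

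Integrins are heterodimers of an alpha and a beta subunit that bind matrix proteins or receptors on other cells and link them to actin. Icam1 and Vcam1 are immunoglobulin-type receptors that bind leukocyte integrins, and both are known targets of the inflammatory factor NF-kappaB. Syndecans are heparan sulphate proteoglycans that act beside integrins, Cd44 binds hyaluronan, and cadherins bind their own kind between neighbouring cells. In the kidney, the integrin alpha 8 subunit, encoded by Itga8, pairs with beta 1, serves kidney development and is found in mesangial cells.

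MAS5 signals are linear intensities, and those of different probe sets are not comparable as levels. A probe set was tested where its geometric mean over the 6 arrays reached the median of the array, which was a signal of 193.7. Of the members, 59 probe sets of 26 genes were tested and 18 genes were not. Except where another probe set is named, a gene is given by its brightest probe set. Means are given ± SD over 2 arrays, log2 changes ± SE, and a change was called at a Benjamini-Hochberg adjusted p under 0.05 in limma over all 22519 tested probe sets. In RNA of whole cultures, fewer cells that express a gene and less RNA per cell cannot be told apart.

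Arrays of the same group correlated at 0.981 to 0.987 over the tested probe sets. Between groups the correlations were 0.954 to 0.975. The 3' to 5' ratio of the beta-actin controls, which rises as RNA degrades, was 1.22 to 1.26 with vehicle, 1.32 to 1.35 with hydrogen peroxide and 1.46 to 1.55 with interleukin. The same ratio of the transferrin receptor controls was 1.85 and 2.14, then 3.54 and 2.30, then 3.05 and 3.95. The part of these differences in the results below was not tested. Of 8 markers of renin cells and pericytes, Pdgfrb, Acta2, Kcnj8 and Cspg4 were tested, and Rgs5 and Gja5 lay below the signal limit. Ren1 and Akr1b7 had no probe set annotated to them alone, and probe sets of several symbols were not searched. The summed signal of the 6 others was 18601 to 18962 with vehicle, 18548 to 19193 with hydrogen peroxide and 26428 to 32461 with interleukin. With interleukin Pdgfrb rose by 0.56 (log2, adjusted p = 0.00327) and Acta2 by 0.99 (0.00305), and with hydrogen peroxide Kcnj8 fell by 1.65 (0.00255) and Acta2 was 0.62 higher (0.0573, not called). The leukocyte markers summed to 4243 to 4250 with vehicle, 4845 to 5154 with hydrogen peroxide and 7012 to 8055 with interleukin. Of 4 tested leukocyte markers (of 11 on the array), Cd14 and Cd68 rose with interleukin and Cd68 with hydrogen peroxide, while Ptprc, the pan-leukocyte marker, stayed between 21.3 and 125.7 on all arrays. Endothelial markers summed to 14027 to 16338, 11535 to 12422 and 9057 to 12515 in the same order of groups. Of 8 endothelial markers 2 were tested. Kdr fell with interleukin (-0.60, adjusted p = 0.0194) and read 13235 and 15690 with vehicle, so it made up most of these sums. The other, Egfl7, was 0.51 higher with interleukin (adjusted p = 0.138) and 0.72 higher with hydrogen peroxide (0.0797), neither called. Pecam1 and Cdh5 were below the limit.

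With interleukin, 13 of the 26 tested genes were called, 10 higher and 3 lower, where 16.4% of all 10892 genes tested were called, 9.78% higher and 6.61% lower. Icam1, Vcam1, Itga5, Itga7, Itgb4, Itgb5, Sdc1, Sdc4, Cd44 and Cdon rose, and Itga6, Itga8 and Ncam1 fell. With hydrogen peroxide 5 genes were called, beside 6.99% of all genes (4.08% higher and 2.91% lower): Cd44 and Itgb4 rose, and Itga8, Ncam1 and Cdon fell. Among these, 2 genes rose and 2 fell under both treatments, which share the vehicle arrays, and Cdon alone moved in opposite directions. The median log2 change of the 26 genes was 0.24 with interleukin and 0.00 with hydrogen peroxide, beside 0.03 and 0.06 over all genes. Itgb4 passed the signal limit only through the treated groups, and without it the counts were 9 higher and 3 lower, and 1 and 3. Of the 53 member probe sets above the limit in every group, 13 rose and 5 fell with interleukin. With hydrogen peroxide 3 of them rose and 4 fell. Over all tested probe sets of the members, 21 of 59 were called with interleukin and 9 with hydrogen peroxide, beside 16.1% and 5.69% of all. Leaving out vehicle array 1 gave counts of 9 and 3, and leaving out vehicle array 2 gave 10 and 3. Without hydrogen peroxide array 1 the latter count was 3, without interleukin array 1 the former was 14, and without a trend in the variance model the counts were 10 and 0.

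**Figure D1:**
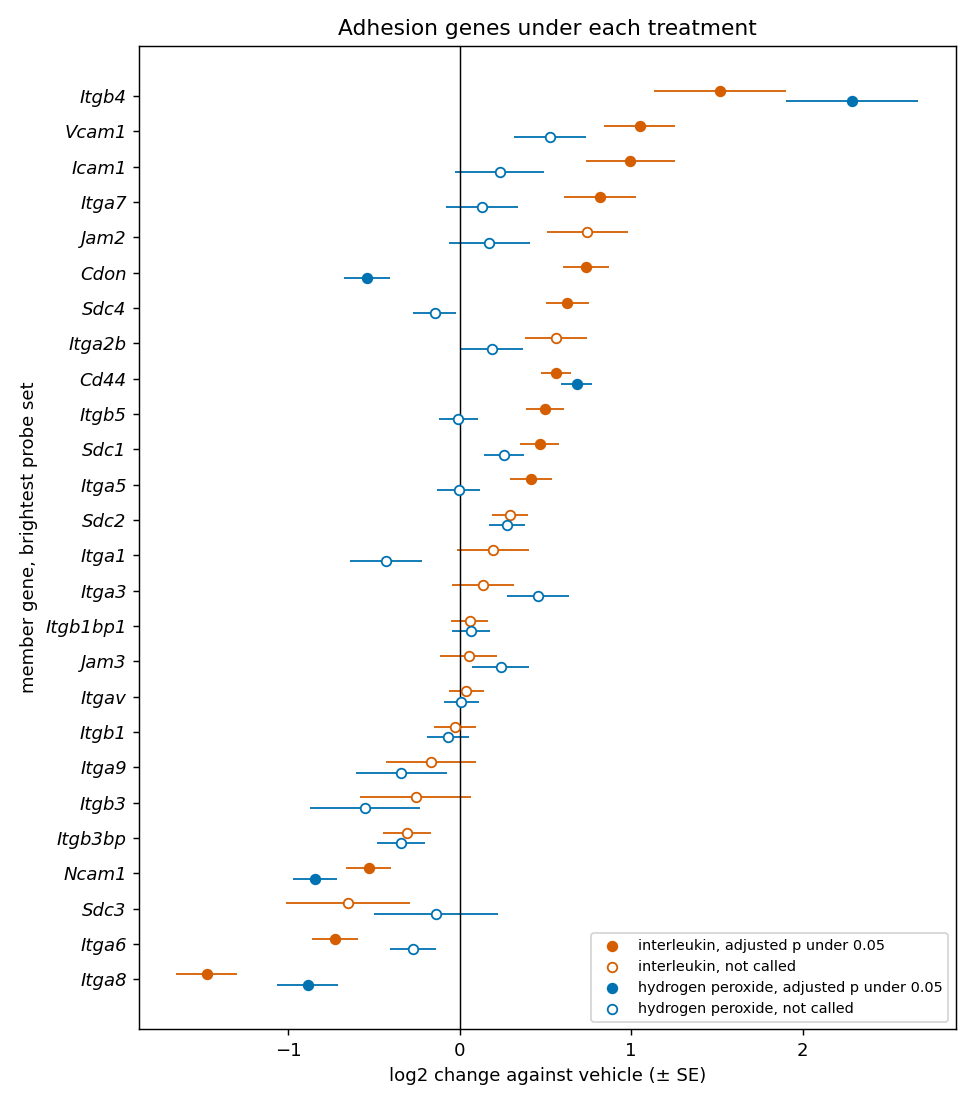
Log2 change against vehicle (± SE, 2 arrays per group) of the 26 tested adhesion genes, 1 row per gene in the order of the interleukin change, with interleukin in orange and hydrogen peroxide in blue. Filled points are called: 13 under interleukin and 5 under hydrogen peroxide, with Itgb4 at the top and Itga8 at the bottom, and Cdon on both sides of 0.

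**Figure D2:**
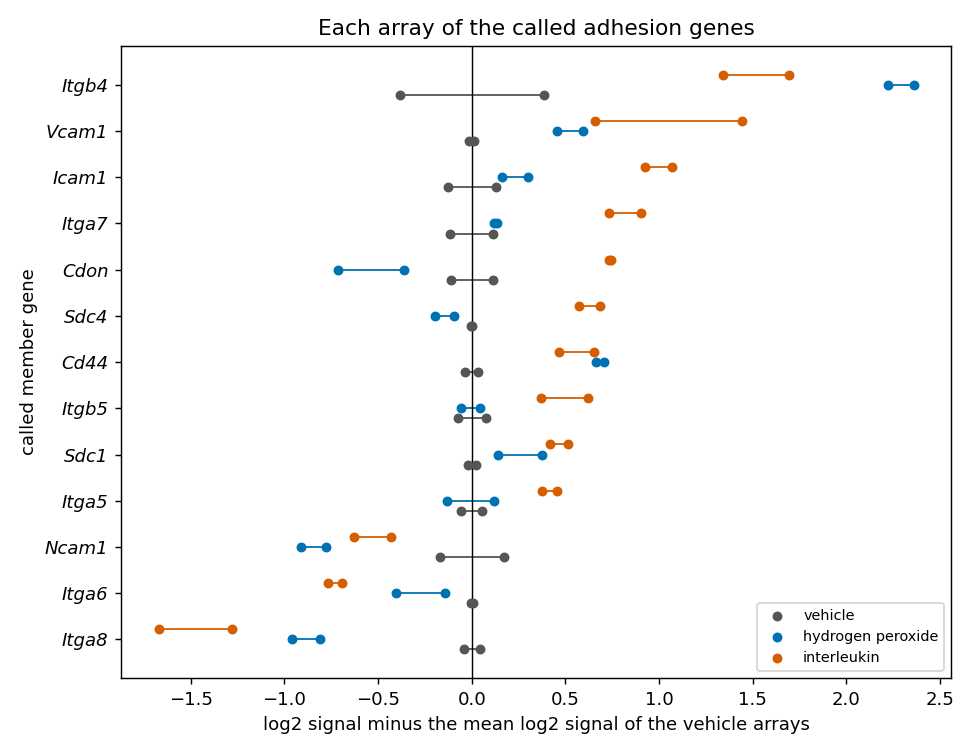
Log2 signal of every array minus the mean of the vehicle arrays, for the 13 called genes, with a line joining the 2 arrays of a group. The vehicle arrays of Itgb4 and the interleukin arrays of Vcam1 lie farther apart than those of the other genes.

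Of the 9 tested integrin alpha subunits, 2 rose and 2 fell with interleukin and 1 fell with hydrogen peroxide. This count and those of the other kinds below stand beside 16.4% and 6.99% of all genes called. Itga8 fell under both treatments and had the largest fall among the brightest probe sets of the members. Its brightest probe set (1454966_at) read 1994 and 1878 with vehicle, 995 and 1103 with hydrogen peroxide, and 797 and 608 with interleukin. The 3 groups did not overlap. The log2 change was -1.47 ± 0.18 with interleukin (2.78-fold lower, adjusted p = 0.000391) and -0.89 ± 0.18 with hydrogen peroxide (1.85-fold lower, adjusted p = 0.0186). A dimmer probe set of Itga8 gave 539 and 712, 256 and 241, and 105 and 115 in the same order, with log2 changes of -2.50 ± 0.32 and -1.32 ± 0.32 (adjusted p = 0.000629 and 0.0419). Its interleukin values lie below the signal limit, so that fold rests on a dim level. It was tested only through the other groups, so the direction of its interleukin call is partly set by the filter. On the brightest probe set the fall with interleukin was called under all 16 alternatives run. The fall with hydrogen peroxide kept its size but not its call: adjusted p was 0.139 without vehicle array 1, 0.114 without vehicle array 2, 0.109 and 0.0506 without hydrogen peroxide arrays 1 and 2, and 0.0975 without a variance trend.

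The promoter of Itga8 is shown because this gene fell most among the brightest probe sets. Of the 44 member genes, 28 had a window in the RefSeq promoter table (GRCm38.p6). The 250 bases before its start site, at chr2:12301945-12302194 on the minus strand, hold none of the 3 motifs searched on both strands, so no base is in capitals. These motifs are the NF-kappaB consensus, GGNAATTCC and TTCNNNGAA.
Itga8: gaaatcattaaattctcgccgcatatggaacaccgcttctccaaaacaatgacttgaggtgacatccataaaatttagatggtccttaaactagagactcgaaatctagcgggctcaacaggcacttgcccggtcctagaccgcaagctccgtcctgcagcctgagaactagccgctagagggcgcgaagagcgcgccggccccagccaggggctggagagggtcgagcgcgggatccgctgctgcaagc

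Itga6, a laminin receptor subunit, also fell with interleukin. Its signal (1422445_at) was 3192 and 3212 with vehicle and 1981 and 1884 with interleukin, a log2 change of -0.73 ± 0.13 (adjusted p = 0.00446) that was called under all 16 alternatives. The hydrogen peroxide arrays read 2417 and 2902, between the other groups, with a log2 change of -0.27 ± 0.13 (adjusted p = 0.260). The dimmer probe set of Itga6 was lower by 0.25 (log2) with interleukin and was not called (adjusted p = 0.286).

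Itga7, another laminin receptor subunit, and Itga5, the subunit of the main fibronectin receptor, rose with interleukin. Itga7 read 502 and 428 with vehicle, 510 and 504 with hydrogen peroxide, and 868 and 769 with interleukin, so that the interleukin arrays alone stood apart (log2 change 0.82 ± 0.21, adjusted p = 0.0240). Its adjusted p was 0.0742 without vehicle array 1, 0.162 without vehicle array 2, 0.108 without interleukin array 1 and 0.0557 with no filter on signal. Itga5 read 3413 and 3682, 3852 and 3235, and 4594 and 4862 in the same order (log2 change 0.41 ± 0.12, adjusted p = 0.0455). That call was close to the limit and was lost in 8 of the 15 alternatives that include this probe set, among them without vehicle arrays 1 and 2 (0.245 and 0.134), without interleukin arrays 1 and 2 (0.0829 and 0.135) and with the replicate number as a block (0.0620). The other two tested probe sets of Itga5 had log2 changes of 0.05 and -0.02 with interleukin.

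Itgav, the subunit of vitronectin receptors, differed between its probe sets. The brightest read 12026 and 13431 with vehicle, 12632 and 12967 with hydrogen peroxide, and 14137 and 12046 with interleukin, and the groups overlapped (log2 change with interleukin 0.04 ± 0.10, adjusted p = 0.841). A second probe set of Itgav (1421198_at) read 2619 and 2407, 1343 and 2183, and 1184 and 688, and was called lower with interleukin (-1.48 ± 0.27, adjusted p = 0.00432). The dimmest tested probe set of Itgav read 448 and 472, 132 and 349, and 102 and 189 in the same order. It was also called lower with interleukin (-1.73 ± 0.49, adjusted p = 0.0361). Its interleukin values lie below the signal limit, and it was tested only through the other groups. The direction of that call is therefore partly set by the filter, and its fold rests on a dim level. The probe sets bind different stretches of the transcripts, and which transcripts they detect was not tested.

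Of the other alpha subunits, Itga1, Itga2b, Itga3 and Itga9 were called in no comparison. Itga2b, the platelet integrin subunit, came nearest and moved from 1001 and 1155 with vehicle to 1657 and 1520 with interleukin (log2 change 0.56 ± 0.18, adjusted p = 0.0618). It was called in 4 of the alternatives, with adjusted p of 0.0358 to 0.0433. Of 4 platelet markers, 1 was tested and not called, and their summed signal was 3765 to 4011 with vehicle, 2489 to 2971 with hydrogen peroxide and 2804 to 3423 with interleukin. The tested marker, Gp1bb, read 3476 and 3774 with vehicle, so it made up most of these sums. Its log2 change was -0.37 with interleukin (adjusted p = 0.130) and -0.56 with hydrogen peroxide (0.0599). The other platelet markers, Pf4, Gp9 and Ppbp, lay below the signal limit, with Pf4 between 79.3 and 188.6 on all arrays. Itga1, a collagen receptor subunit, read 659 and 665 with vehicle, 536 and 450 with hydrogen peroxide, and 674 and 850 with interleukin, where the log2 change between the treatments was 0.62 ± 0.21 (adjusted p = 0.101).

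Of the 4 tested beta subunits, Itgb4 and Itgb5 rose with interleukin, and Itgb1, the partner of most alpha subunits, and Itgb3 were not called. Itgb1 read 7176 and 8399 with vehicle, 6859 and 7982 with hydrogen peroxide, and 7115 and 8147 with interleukin. The groups overlapped almost fully, and the log2 changes were -0.03 ± 0.12 with interleukin and -0.07 ± 0.12 with hydrogen peroxide. A dimmer probe set of Itgb1, of a type that can match several transcripts, rose with hydrogen peroxide from 550 and 374 to 908 and 1243 (1.23 ± 0.27, adjusted p = 0.0291), while the third was lower by 0.22 (log2, adjusted p = 0.258). Itgb3 read 449 and 569, 401 and 297, and 567 and 316, with adjusted p of 0.642 with interleukin and 0.352 with hydrogen peroxide.

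Itgb4, the partner of Itga6 in hemidesmosomes, had the largest rise of the tested members. It (1427387_a_at) read 120 and 70.8 with vehicle, 431 and 474 with hydrogen peroxide, and 234 and 299 with interleukin, and the 3 groups did not overlap. The log2 change was 2.29 ± 0.39 with hydrogen peroxide (4.89-fold, adjusted p = 0.00866) and 1.52 ± 0.39 with interleukin (2.87-fold, adjusted p = 0.0231). Both vehicle arrays lie below the signal limit, so the fold depends on how dim signals are treated. Itgb4 was tested only through the treated groups, so the direction of both calls and its rank are partly set by the filter. With hydrogen peroxide the adjusted p was 0.0657 without vehicle array 2, 0.0518 without hydrogen peroxide array 1 and 0.0569 without a variance trend. With interleukin it was 0.146 without vehicle array 2, 0.0538 and 0.105 without interleukin arrays 1 and 2, 0.0516 with 4 arrays only and 0.0655 with no filter.

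Itgb5, which pairs with the alpha v subunit, rose from 7446 and 8270 with vehicle to 10151 and 12073 with interleukin, and was 8082 and 7544 with hydrogen peroxide. The interleukin arrays stood above the other 4, which overlapped (log2 change 0.50 ± 0.11, adjusted p = 0.0133). The adjusted p was 0.124 without vehicle array 1, 0.0672 without interleukin array 2 and 0.0884 without a variance trend. The other 3 probe sets of Itgb5 were higher by 0.07, 0.18 and 0.27 (log2) with interleukin and none of the 3 was called. The binding proteins Itgb1bp1 and Itgb3bp were not called in any comparison, with log2 changes of 0.06 and -0.31 with interleukin.

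**Figure D3:**
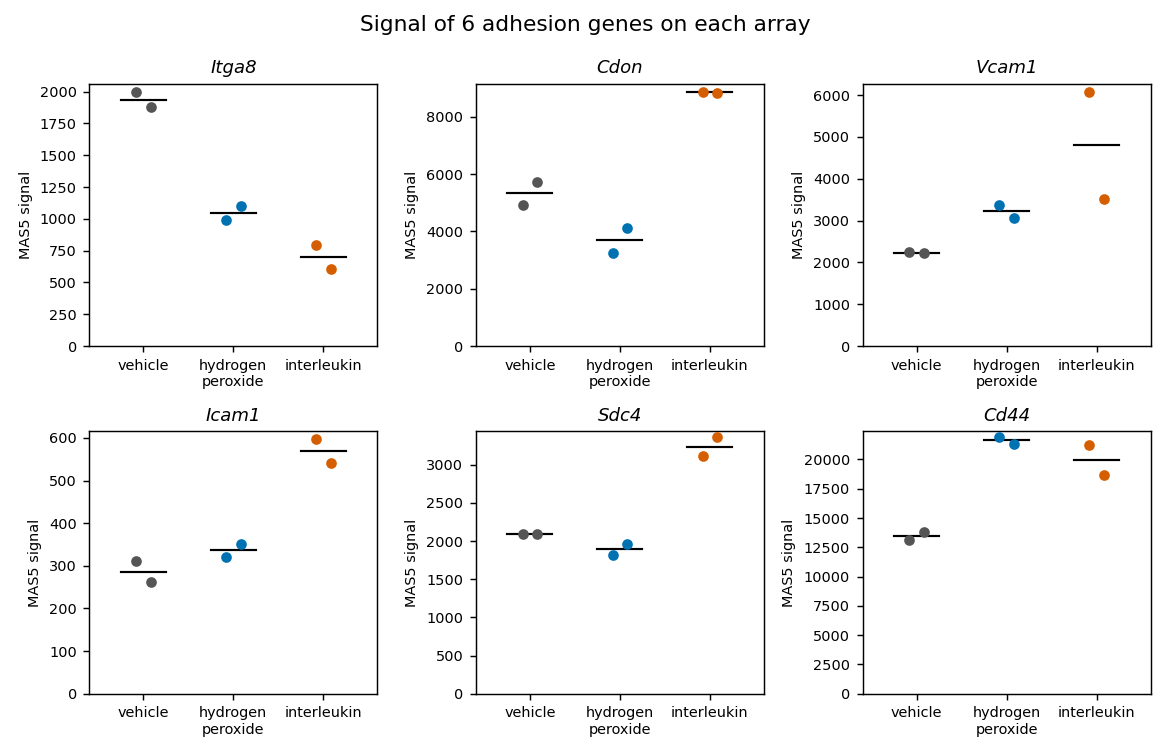
MAS5 signal on a linear axis from 0 of 6 called genes on each array (points) with the group mean (line). The interleukin arrays are highest for Cdon, Vcam1, Icam1 and Sdc4 and lowest for Itga8, and both treatments lie above vehicle for Cd44.

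Of the 5 tested immunoglobulin-type receptors, Vcam1 and Icam1 about doubled with interleukin and Ncam1 fell under both treatments. Vcam1 (1448162_at) read 2256 and 2217 with vehicle, 3381 and 3072 with hydrogen peroxide, and 6083 and 3528 with interleukin. The groups did not overlap, but the interleukin arrays lay far apart. The log2 change with interleukin was 1.05 ± 0.21 (adjusted p = 0.00682), and it ranged from 0.66 to 1.44 as single arrays were left out. It was not called without a variance trend (0.0673). The other two probe sets of Vcam1 were higher by 0.62 (adjusted p = 0.0457) and 0.71 (adjusted p = 0.0571). With hydrogen peroxide the Vcam1 change was 0.53 ± 0.21 (adjusted p = 0.166), and this was called without interleukin array 1 (0.0270), without interleukin array 2 (0.0250) and with 4 arrays only (0.0301).

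Icam1 had a single probe set (1424067_at), which read 312 and 262 with vehicle. It read 320 and 352 with hydrogen peroxide and 599 and 542 with interleukin. The interleukin arrays stood above the other 4 (log2 change 0.996 ± 0.26, 1.99-fold, adjusted p = 0.0256). The call was lost without vehicle array 1 or 2 (0.0795 and 0.159), without interleukin array 1 or 2 (0.109 and 0.0620) and with no filter (0.0660). With hydrogen peroxide the change was 0.23 ± 0.26 (adjusted p = 0.646).

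The promoters of Icam1 and Sdc4 are shown because both genes rose with interleukin and their windows share a short motif, which was chosen after the sequences were seen. The 250 bases before the start sites are at chr9:21015690-21015939 on the plus strand for Icam1 and chr2:164443189-164443438 on the minus strand for Sdc4, in GRCm38.p6. Capitals mark matches to GGNAATTCC, to TTCNNNGAA, a pattern of STAT binding sites, and to the NF-kappaB consensus, searched on both strands.
Icam1: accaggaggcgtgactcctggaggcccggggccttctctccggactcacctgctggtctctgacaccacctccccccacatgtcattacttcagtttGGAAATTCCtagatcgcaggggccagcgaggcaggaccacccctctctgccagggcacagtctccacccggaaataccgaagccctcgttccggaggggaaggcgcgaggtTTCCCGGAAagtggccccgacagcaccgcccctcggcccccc
Sdc4: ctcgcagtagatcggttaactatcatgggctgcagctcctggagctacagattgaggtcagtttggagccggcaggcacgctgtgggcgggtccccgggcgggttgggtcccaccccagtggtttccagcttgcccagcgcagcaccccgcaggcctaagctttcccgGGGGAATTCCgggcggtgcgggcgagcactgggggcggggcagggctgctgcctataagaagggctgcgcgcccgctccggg
In Icam1, GGAAATTCC begins 153 bases and TTCCCGGAA 42 bases before the start site. In Sdc4, GGGGAATTCC begins 82 bases before it and matches the NF-kappaB consensus, and its last 9 bases match GGNAATTCC. Among 32851 promoter windows of 300 bases, 0.785% held GGNAATTCC, 4.51% the NF-kappaB consensus and 8.3% TTCNNNGAA, and among the 30 windows of members the numbers were 2, 1 and 3. A match describes the letters only, and binding was not measured.

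Ncam1, a neural and stromal adhesion receptor, read 10582 and 8355 with vehicle, 5476 and 5008 with hydrogen peroxide, and 6962 and 6078 with interleukin. Both treated groups lay below both vehicle arrays. The log2 change was -0.84 ± 0.13 with hydrogen peroxide (adjusted p = 0.00591) and -0.53 ± 0.13 with interleukin (adjusted p = 0.0200). The first was 0.0700 without vehicle array 1 and 0.100 without a variance trend, and the second was 0.197 without vehicle array 1, 0.0977 without interleukin array 2 and 0.104 without a variance trend. Of the 5 tested probe sets of Ncam1, the second brightest was also called lower with hydrogen peroxide (-0.68, adjusted p = 0.0388). The others ranged from -0.93 to 0.40 under that treatment, so they differed in direction.

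The junctional receptors Jam2 and Jam3 were not called. Jam2 was higher with interleukin on all 4 tested probe sets, by 0.60 to 1.34 (log2), with adjusted p of 0.0531 to 0.205. Of these, 2 lay below the signal limit with vehicle and were tested only through the other groups, so their direction is partly set by the filter. Its brightest probe set read 371 and 382 with vehicle, 387 and 465 with hydrogen peroxide, and 686 and 579 with interleukin, and the interleukin arrays stood above the other 4 (0.74 ± 0.24, adjusted p = 0.0569). This value of Jam2 was called after quantile normalization (0.0468), without a variance trend (0.0447) and with 1 probe set per gene (0.0371). Jam3 read 977 and 848, 1070 and 1080, and 970 and 917, which overlapped between vehicle and interleukin.

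Of the 4 syndecans, Sdc1 and Sdc4 rose with interleukin and Sdc2 and Sdc3 were not called. Sdc4, which acts with integrins in focal adhesions (1448793_a_at), read 2092 and 2088 with vehicle, 1824 and 1957 with hydrogen peroxide, and 3109 and 3359 with interleukin. The interleukin arrays stood well above the other 4 (log2 change 0.63 ± 0.13, 1.55-fold, adjusted p = 0.00739), with adjusted p of 0.0597 and 0.0613 without vehicle arrays 1 and 2. The dimmer probe set of Sdc4 changed by 0.08 (adjusted p = 0.834). Sdc1 read 4629 and 4499, 5919 and 5034, and 6521 and 6094 (log2 change with interleukin 0.47 ± 0.11, adjusted p = 0.0196), and 3 of its 4 probe sets were called higher. For the brightest, adjusted p was 0.0984 and 0.128 without vehicle arrays 1 and 2, 0.0802 without interleukin array 1 and 0.0867 without a variance trend.

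Sdc2 had probe sets that pointed both ways with interleukin. The brightest read 6993 and 6587 with vehicle, 8782 and 7689 with hydrogen peroxide, and 8731 and 7932 with interleukin (0.29 ± 0.11, adjusted p = 0.0897). A second Sdc2 probe set was higher by 0.29 (adjusted p = 0.0822), and another was called lower, from 5799 and 5313 to 4529 and 3694 (-0.44 ± 0.13, adjusted p = 0.0388). Sdc3 moved from 455 and 589 with vehicle to 500 and 217 with interleukin. The second interleukin array set its change of -0.65 ± 0.36 (adjusted p = 0.256). A dimmer probe set of Sdc3, below the signal limit with vehicle, pointed the other way (0.83 ± 0.36, adjusted p = 0.153). Its direction is partly set by the filter, as it was tested only through the other groups. Without interleukin array 1 the change of the brightest Sdc3 probe set was -1.26 and called (adjusted p = 0.0313), and without interleukin array 2 it was -0.05 (adjusted p = 0.930).

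Cd44 rose under both treatments. Its signal (1434376_at) was 13149 and 13813 with vehicle, 21954 and 21303 with hydrogen peroxide, and 21203 and 18635 with interleukin. Both treated groups stood above vehicle and overlapped no vehicle array. The log2 change was 0.68 ± 0.09 with hydrogen peroxide (1.61-fold, adjusted p = 0.00266) and 0.56 ± 0.09 with interleukin (1.48-fold, adjusted p = 0.00207). Both were lost only without a variance trend, at 0.0914 and 0.0504. A second bright probe set of Cd44 gave 0.77 ± 0.08 and 0.65 ± 0.08. The third, dimmer one read 5436 and 5245, 6450 and 8544, and 5312 and 4370, was not called against vehicle and was lower with interleukin than with hydrogen peroxide (-0.62 ± 0.15, adjusted p = 0.0242).

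Cdon, a coreceptor of hedgehog proteins that also binds cadherins, moved in opposite directions. Its brightest probe set (1434957_at) read 4917 and 5739 with vehicle, 3239 and 4132 with hydrogen peroxide, and 8877 and 8825 with interleukin. No group overlapped another. It rose by 0.74 ± 0.13 (log2) with interleukin (adjusted p = 0.00439) and fell by 0.54 ± 0.13 with hydrogen peroxide (adjusted p = 0.0439). The direct difference between interleukin and hydrogen peroxide was 1.27 ± 0.13 (2.42-fold, adjusted p = 0.000216) and was called under all 16 alternatives. The rise was 0.0559 without vehicle array 1 and 0.0527 without a variance trend. The fall of Cdon was lost without vehicle array 1 or 2 (0.106 and 0.300), hydrogen peroxide array 1 (0.261) or interleukin array 2 (0.0501). It was also lost with 4 arrays only (0.0540), no filter (0.0828) and no variance trend (0.171). A dimmer probe set of Cdon was not called in any comparison, with a difference of 0.52 ± 0.25 between the treatments (adjusted p = 0.232).

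Interleukin was also set directly against hydrogen peroxide. Of the 26 genes, 3 were called, all higher with interleukin, beside 10.4% of all genes called, 6.3% higher and 4.06% lower. They were Cdon, Sdc4 and Itgb5. The lower calls were on dimmer probe sets, of Cd44 (-0.62, above), Itga8 (-1.18 ± 0.32, adjusted p = 0.0485, at interleukin values below the signal limit) and Ncam1 (-1.03 ± 0.27, adjusted p = 0.0396). Sdc4 differed by 0.77 ± 0.13 (log2, 1.71-fold, adjusted p = 0.00366) and kept its call under all 16 alternatives, which use the same probe set. The dimmer probe set of Sdc4 differed by 0.23 and was not called. Itgb5 differed by 0.50 ± 0.11 (adjusted p = 0.0192) and was not called when hydrogen peroxide array 2 (0.139), interleukin array 2 (0.0992) or the variance trend (0.127) was left out. The 4 probe sets of Itgb5 ranged from -0.09 to 0.50, and 2 of them were called. For the brightest probe set of Itga8 the difference was -0.59 ± 0.18 (adjusted p = 0.0678), for Icam1 0.76 ± 0.26 (0.0992) and for Vcam1 0.52 ± 0.21 (0.153). That of Itga8 was called without interleukin array 1 (-0.78, 0.0322) and with 1 probe set per gene (0.0334), and that of Vcam1 without interleukin array 2 (0.92, 0.00576). For Cd44 it was -0.12 ± 0.09 (0.455) and for Itgb4 -0.77 ± 0.39 (0.257). By probe sets 7 of 59 were called, 4 higher and 3 lower with interleukin, beside 8.82% of all, and this count dropped to 2 without hydrogen peroxide array 2. It was 3 without interleukin array 2 and 4 without either vehicle array.

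**Figure D4:**
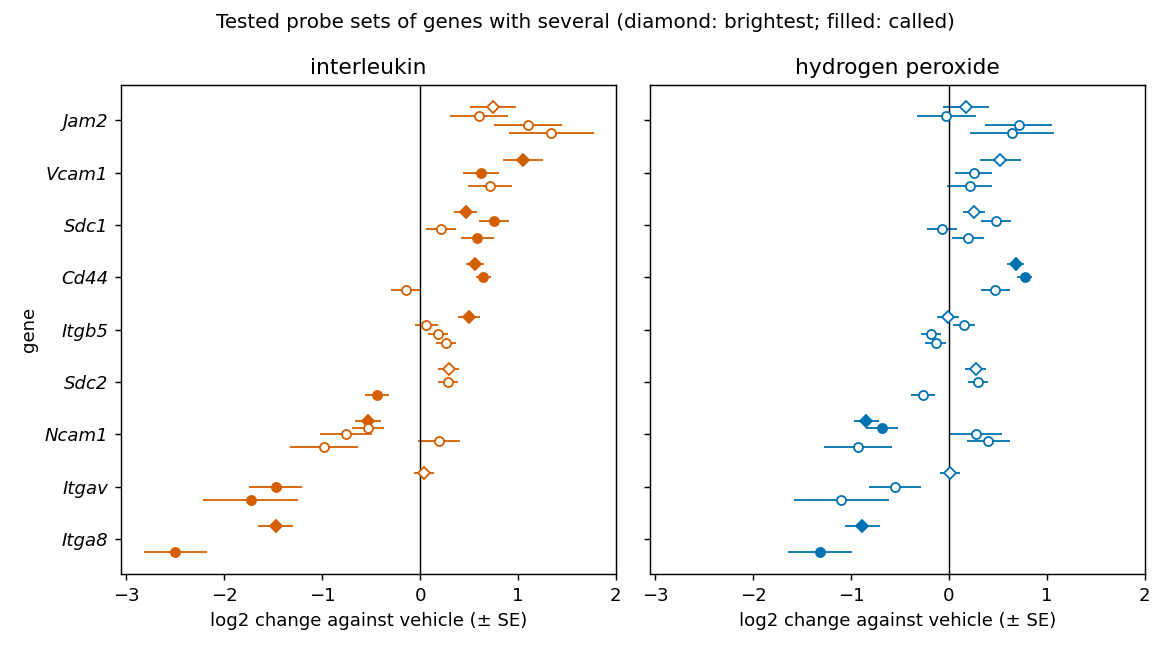
Log2 change against vehicle (± SE) of every tested probe set of 9 genes that have several, with interleukin on the left and hydrogen peroxide on the right. Diamonds are the brightest probe set and filled symbols are called, and Itga8 and Vcam1 point 1 way on all probe sets while Itgav, Ncam1, Sdc2 and Cd44 differ between theirs.

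Of the 26 tested genes, 18 had several tested probe sets. With interleukin, all tested probe sets were called in 1 of these genes (Itga8), none was called in 6, and no gene had probe sets called in opposite directions. With hydrogen peroxide the same counts were 1 (again Itga8) and 13. These counts were not made over all genes with several tested probe sets. The dimmer Itga8 probe set passed the limit only through the other groups, so its fall with interleukin is partly set by the filter. The 6 tested probe sets that reached the limit only through some of the groups belonged to Itgb4, Itga8, Itgav, Sdc3 and Jam2.

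The 18 genes below the signal limit were 7 alpha subunits (Itga2, Itga4, Itga10, Itgae, Itgal, Itgam and Itgax), 5 beta subunits (Itgb2, Itgb2l, Itgb6, Itgb7 and Itgb8), Itgbl1, Itgb1bp2, Alcam, Icam2, Cdh2 and Cdh11. The leukocyte integrin subunits Itgal, Itgam, Itgax, Itgb2 and Itgb7 had signals of at most 225.4 on any array. Cdh2, which encodes N-cadherin, lay between 4.2 and 61.9, and Alcam between 2.7 and 125.4. With no filter on signal, limma called none of their 33 probe sets against vehicle, where 1 had an unadjusted p under 0.05 with interleukin and 3 with hydrogen peroxide. Of all 45037 probe sets, the same fit called 2695 with interleukin, 762 with hydrogen peroxide and 1458 between the treatments. Cdh11, a mesenchymal cadherin singled out after its values were seen, was 1.89 ± 0.43 (log2) higher with interleukin than with hydrogen peroxide in that fit (adjusted p = 0.0460), and 1.23 ± 0.43 higher than with vehicle (adjusted p = 0.149).

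The genes that work with these receptors were followed in 5 lists from textbook knowledge, which hold 102 genes. Of 21 tested genes of integrin activation and focal adhesion, 3 rose and 1 fell with interleukin, and 3 rose with hydrogen peroxide, beside the 16.4% and 6.99% called over all genes. Zyx, which encodes the focal adhesion protein zyxin, rose from 8326 and 9404 with vehicle to 13930 and 14285 with interleukin (0.67 ± 0.10, adjusted p = 0.00109) and to 13685 and 12683 with hydrogen peroxide (0.57 ± 0.10, adjusted p = 0.00801). Tns3, a tensin, rose by 0.66 with interleukin (adjusted p = 0.0264) and by 0.997 with hydrogen peroxide (0.00994), and the parvin Parva by 0.39 with interleukin (0.0360). Vcl, which encodes vinculin, fell by 0.45 ± 0.11 with interleukin (adjusted p = 0.0235). The list's median change was 0.10 under each treatment, beside 0.03 and 0.06 over all genes. Without vehicle array 1 adjusted p was 0.0888 for Vcl, 0.181 for Tns3 and 0.170 for Parva with interleukin, and 0.0949 for Zyx and 0.0962 for Tns3 with hydrogen peroxide. Without vehicle array 2 it was 0.169 for Vcl, 0.0711 for Tns3 and 0.164 for Parva with interleukin. It was 0.108 for Tns3 without interleukin array 1, and 0.0991 for Vcl and 0.122 for Parva without interleukin array 2. With hydrogen peroxide it was 0.0716 for Zyx and 0.0527 for Tns3 without hydrogen peroxide array 1, and 0.0527 for Tns3 without hydrogen peroxide array 2.

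Of 19 tested matrix ligands of integrins, 7 rose and 1 fell with interleukin, with a median of 0.15, and with hydrogen peroxide 4 fell and the median was -0.30. The shares called over all genes were again 16.4% and 6.99%. The matricellular proteins Ccn2 and Ccn1 rose by 2.76 ± 0.14 and 0.76 ± 0.11 (log2) with interleukin, tenascin C (Tnc) by 3.35 ± 0.22, and the laminin chain gene Lama4 from 3270 and 3325 to 9446 and 7685 (1.37 ± 0.12, adjusted p = 5.93e-05). Lama1, a laminin chain outside the 4 of smallest p and named because it alone fell, fell by 1.34 ± 0.20 (adjusted p = 0.00146). With hydrogen peroxide the collagen genes Col1a1 and Col1a2 fell by 0.74 ± 0.08 and 0.58 ± 0.08 (adjusted p = 0.0013 and 0.00327). Neither fall of the collagen genes was called without a variance trend (0.0831 and 0.111).

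Of 11 tested junction partners of cadherins and nectins, Nectin2 rose with interleukin, from 1755 and 1347 to 3098 and 3418 (1.08 ± 0.16, adjusted p = 0.00128), and the others were not called. Of 17 partners of Cd44, syndecans and Jam proteins, 2 rose and 2 fell with interleukin and 1 rose with hydrogen peroxide. Over all genes, 16.4% were called with interleukin and 6.99% with hydrogen peroxide, beside each list of this paragraph. Ext1, a heparan sulphate polymerase, rose from 4772 and 4704 to 8482 and 9918 with interleukin (0.95 ± 0.11, adjusted p = 0.000379). Has2, a hyaluronan synthase, read 274 and 273 with vehicle, 719 and 601 with hydrogen peroxide, and 494 and 600 with interleukin, which was 1.27 ± 0.24 and 0.99 ± 0.24 higher (adjusted p = 0.0143 and 0.0182). Rdx, which encodes radixin, and the sulphotransferase gene Hs2st1 fell by 0.40 and 0.36 with interleukin. Of 11 sheddases, Adam15 rose by 0.77 ± 0.19 with interleukin (adjusted p = 0.0203), and all others were not called against vehicle.

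Without a variance trend, adjusted p with interleukin was 0.102 for Vcl, 0.113 for Parva, 0.151 for Rdx, 0.104 for Hs2st1 and 0.0957 for Adam15. In that fit it was 0.111 for Zyx, 0.0642 for Tns3 and 0.0582 for Has2 with hydrogen peroxide. With no filter, adjusted p with interleukin was 0.0517 for Tns3, 0.0573 for Parva, 0.0672 for Rdx and 0.0571 for Hs2st1. Several of these calls were also lost as single arrays were left out. Has2 had adjusted p of 0.0898 and 0.0901 with interleukin, and 0.0889 and 0.0925 with hydrogen peroxide, without vehicle arrays 1 and 2. It was 0.0860 without interleukin array 2 and 0.102 without hydrogen peroxide array 1. Rdx had 0.211 without vehicle array 1 and 0.134 without interleukin array 2. Adam15 had 0.172 without vehicle array 1 and 0.126 without interleukin array 1. Hs2st1 lost its call without each of the 6 arrays, at 0.0539 to 0.192.

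**Figure D5:**
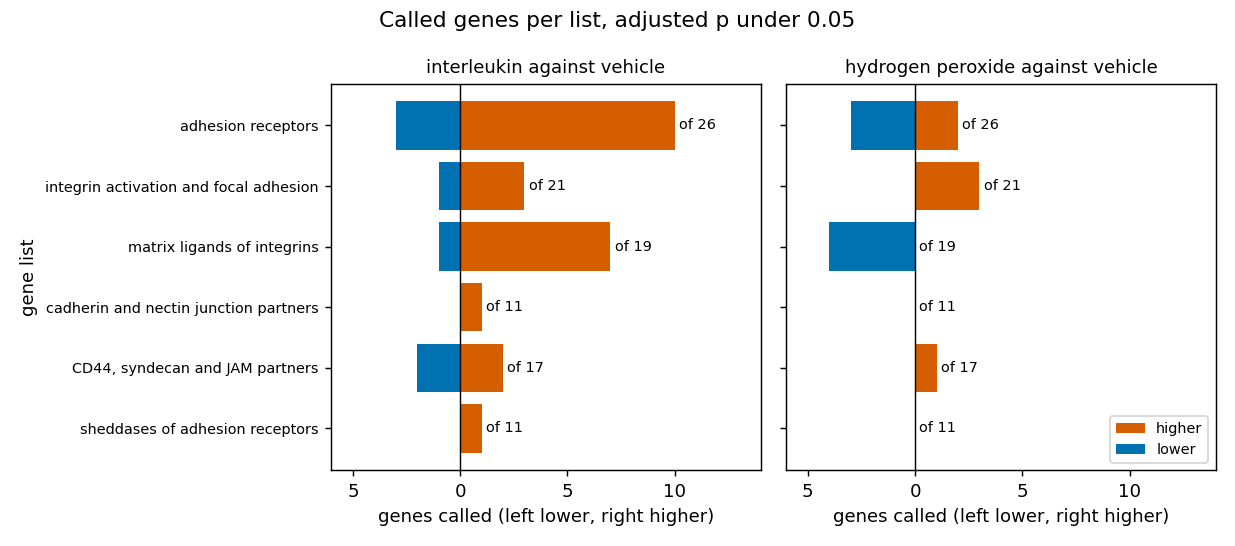
Number of genes called higher (orange, right) and lower (blue, left) in the adhesion receptors and 5 lists of partner genes, with the number tested printed beside each bar, for interleukin (left panel) and hydrogen peroxide (right panel). The receptors have 10 higher and 3 lower with interleukin and 2 and 3 with hydrogen peroxide, and the matrix ligands have 7 and 1, then 0 and 4.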

How the data were processed

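RNA of 6 As4.1 cultures was measured on Affymetrix Mouse Genome arrays. The deposited values are intensities, MAS5 signals on a linear scale, per the submitters' processing notes, with a version not given in the sources used. Each array has the same mean of 1500.01 after trimming 2% at each end. Detection calls were not used here.

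Signals were log2 transformed with no pseudocount. After 64 control probe sets were left out, the brighter part, from the median upward, was tested (22519 probe sets). Symbols came from the array annotation, through a RefSeq gene table in which 34754 of 34958 probe sets with 1 symbol matched. Another 932 probe sets had several symbols. The fit used all 6 arrays in limma 3.58.1 (R 4.3.3), with a variance trend on signal and Benjamini-Hochberg adjustment. The steps were tested on simulated arrays with variances drawn from the fitted model. Of 50 added log2 changes of each size, 9 of size 0.5, 24 of size 1 and 45 of size 2 were called with interleukin. A gene that was not called can therefore still have changed. With 2 arrays per group, their number limits the precision. Any member gene could be named, and per-array values go to the called ones, while lists give up to 4 genes of smallest p with interleukin and up to 2 with hydrogen peroxide. Genes outside this rule are said to be so. The members, lists and tests were chosen with earlier results of these data known.

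Same-numbered arrays deviated together at correlations of -0.129 to 0.107, so the numbers were not taken as pairs.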

Additional observations from a re-analysis of the deposited data

How the results depend on the processing

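Of the 21 called changes of member genes, 4 kept their call under all 16 alternatives: Itga8 and Itga6 with interleukin, and Cdon and Sdc4 between the treatments. No called value of a named gene changed direction. The called member probe sets were 21 with interleukin, 9 with hydrogen peroxide and 7 between the treatments. In limma without a variance trend they were 10, 0 and 3, where 15 of the 59 tested had an unadjusted p under 0.05 with hydrogen peroxide, and the calls over all probe sets were 1783, 57 and 716 in place of 3627, 1282 and 1987. With no filter the member counts were 13 of 112 with interleukin and 5 with hydrogen peroxide, beside 2695 and 762 of all 45037 probe sets. With 1 probe set per gene, which tests fewer, 15 of 26 members were called with interleukin and 5 with hydrogen peroxide. Of all 10892 tested in that fit, 2128 and 1270 were called. With 4 arrays only, 4 members differed between the treatments, beside 1518 of all probe sets. With the replicate block, the fit with the replicate number as a block, these counts were 4 and 1756. That block ended 1 call of a named gene, Itga5 with interleukin. As single arrays were left out, which leaves 1 array in a group, the member counts were 9 to 24 with interleukin, 3 to 10 with hydrogen peroxide and 2 to 7 between the treatments. Those over all probe sets were 1554 to 3583, 235 to 1751 and 839 to 1919. The cause of these changes was not tested beyond the smaller numbers of arrays or genes.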
